A study of Rattus norvegicus with 24 samples.

Results

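Sciatic nerves of wild-type (Wt) rats were compared between postnatal day 6 (P6) and postnatal day 18 (P18), with 4 libraries at each age. These 8 samples were taken by their genotype and age labels from a series of 24, which also holds Wt nerves of embryonic day 21 (E21) and nerves of Pmp22 transgenic (Tg) rats at the same ages, 4 libraries each. Both genotypes were on a Sprague-Dawley background. Tg rats carry extra copies of Pmp22 and serve as a model of the demyelinating neuropathy CMT1A, whereas the Wt rats carry none. The epineurium had been taken off the nerves, polyadenylated RNA was sequenced, and the libraries of a group are labelled as biological replicates. The comparison covers the days in which myelin sheaths grow and mature in an undisturbed nerve.

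In peripheral nerve, a Schwann cell that has sorted 1 axon wraps it in a spiral of membrane that becomes compact myelin, a lipid-rich stack held together by a small set of abundant proteins. Building it needs cholesterol, very long chain fatty acids and galactolipids, and is driven by the transcription factors Sox10 and Egr2 under signals from the axon. Schwann cells stop dividing as they myelinate, while fibroblasts, perineurial cells, vessels and resident macrophages form the tissue around the fibres.

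The deposited values are expected counts for 32402 genes, which were rounded to whole numbers. Total counts were 12699291, 24875636, 13335280 and 24260404 in P6 replicates 1 to 4 and 13155963, 19458444, 9700631 and 18525873 in P18 replicates 1 to 4. Before rounding, 12.5% to 17.9% of the numbers in each library were fractions, because reads that match several genes are divided among them, and the levels of nearly identical genes are therefore less certain. Levels are given in CPM, the counts scaled to an equal library size, after scaling by trimmed mean of M values (TMM), in the order of the replicate numbers. A gene passed the test when its adjusted p was under 0.05 in edgeR's quasi-likelihood test, fitted over all 24 libraries and adjusted by the Benjamini-Hochberg method over the 15951 genes whose normalized counts averaged 5 or more. Log2 fold changes are P18 over P6, each with its standard error (SE). As the samples are whole nerves, fewer cells of a type and less RNA per cell cannot be told apart.

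Several libraries stood apart before any comparison was made. The Y-linked gene Eif2s3y had 0, 40.5, 82.4 and 79.9 CPM at P6 and 67.8, 0.0602, 0.236 and 0.127 at P18. P6 replicate 1 and P18 replicates 2, 3 and 4 were at or near 0, and P6 replicate 2 lay at an intermediate level, so Y-linked transcripts were present in 3 of 4 P6 libraries and in 1 of 4 P18 libraries. Of the list of Y-linked and X-inactivation genes, the 3 tested members (Ddx3, Eif2s3y and Kdm5d) did not pass, with a median log2 fold change of -1.41 that became -8.76 without P18 replicate 1, when all 3 passed. Ddx3y and Usp9y were below the count filter. Sex and age cannot be fully told apart here, and with the summed Y-linked level as a covariate, an alternative chosen after seeing the data, 6431 genes passed in place of 6622. Transcripts of skeletal muscle also differed between libraries of 1 age. Their summed level was 220.1, 108, 37.0 and 30.0 CPM at P6 and 66.2, 556, 28.0 and 26.5 at P18, highest in P18 replicate 2 and P6 replicate 1. Acta1, the actin of skeletal muscle and the most abundant at P6 of the 14 muscle genes tested, had 59.4, 28.6, 8.04 and 6.36 CPM at P6 and 10.8, 130.1, 0 and 1.14 at P18. Its ages overlapped, and its log2 fold change of 0.55 became 1.32 without P6 replicate 1 and -2.63 without P18 replicate 2. Without these 2 libraries, again an alternative chosen after seeing the data, 6079 genes passed. Only Mb, the oxygen-binding protein of muscle, passed among the muscle genes, with a log2 fold change of 4.10. It did not pass without P6 replicate 1, 2 or 4 (3.60 to 4.72) or without P18 replicate 2 (1.82). The median of the muscle list was 0.74, with 1.66 without P6 replicate 1 and -1.84 without P18 replicate 2. P18 replicate 3, the library with the fewest counts, also had the fewest genes, as described beside the overall result.

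The libraries labelled Wt were checked against the genotype label. AC130064.1 had at most 1 count in the 12 libraries labelled Wt and at least 7 in the 12 labelled Tg. Pmp22 had 22924, 23991, 22820.4 and 22671 CPM in the P6 libraries labelled Wt and 26462, 23982, 24039 and 24864 CPM in the P6 libraries labelled Tg, which overlap, and 44516, 45597, 46154 and 46349 CPM against 23885, 25212, 24929 and 24535 CPM at P18, lower under the label Tg. Statements that set Wt beside Tg therefore speak of libraries labelled Wt or labelled Tg. As markers of the tissue, the myelin genes Pmp22 and Mbp were among the most abundant transcripts at both ages.

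From P6 to P18, transcripts of compact myelin made up a growing share of the counts, as did those of fatty acid synthesis, mostly through Scd2. Most genes of the cell cycle list were lower, and most genes tested in the lists of fibroblast markers, of antigen presentation and of hormone response were higher. Of the 15951 genes tested, 3249 were higher at P18 (20.4%) and 3373 were lower (21.1%), together 6622 (41.5%). At least 2-fold differences that passed were found for 995 genes higher (6.24%) and 749 lower (4.70%). In 2719 genes every P18 library was above every P6 library (17.0%), and in 2639 every P18 library was below (16.5%), together 5358 (33.6%). The median log2 fold change of all genes tested was -0.02, and medians of gene lists are to be read beside it. Counts of list members that passed are likewise to be read beside the 20.4% higher and 21.1% lower. The model also held the groups labelled Tg, which allowed a test of whether the change from P6 to P18 differed between libraries labelled Wt and Tg. It differed for 1585 genes (9.94%), of which 751 (4.71%) had the more positive change in libraries labelled Wt and 834 (5.23%) the more negative. Of the genes that were higher at P18 in Wt nerve, 639 had a change that differed from that in libraries labelled Tg, and of those that were lower, 567 did. Both sets were picked by the Wt change that enters the difference, so these counts cannot be compared with the 9.94%.

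The balance of higher and lower genes depended on the scaling, and a few abundant transcripts took up more of the counts at P18. The 10 most abundant genes of each library held 18.6%, 19.99%, 19.6% and 19.1% of the counts at P6 and 25.7%, 26.0%, 23.8% and 24.9% at P18. The 2 ages did not overlap, and the difference of means was 5.77 percentage points (two-sided exact permutation test, p = 0.0286, the smallest that 4 against 4 libraries can give). The TMM factors, which correct for such shifts, were 1.01, 0.985, 0.989 and 1.005 at P6 and 0.864, 0.853, 0.872 and 0.849 at P18. Under plain scaling to total counts the all-gene median moved to -0.24, and 1980 genes were higher and 6348 lower, so that 23.8% of the genes that passed were higher in place of 49.1%. Scaled to total counts without the compact myelin genes and the 50 most abundant genes, the median was -0.12, with 2570 higher and 4633 lower (35.7% higher). With total counts only, the medians of several lists described below came close to 0 without reversing: 0.05 for fatty acid synthesis, 0.06 for cholesterol regulation, 0.07 for non-compact myelin and for immediate early genes, and 0.10 for the matrix. All further values use TMM scaling, and a change is named as depending on scaling where its direction flipped.

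At a common depth of 9700631 counts, the number of genes detected with at least 1 count was 17776, 17906, 17664 and 17892 at P6 and 17473, 17709.7, 15655 and 17631 at P18. P18 replicate 3 lay far below the others, and P18 replicate 2 lay within the range of P6. The mean was 17809 ± 113 genes at P6 and 17117 ± 980 at P18 (SD, n = 4 each), a difference of -692 (two-sided exact permutation test, p = 0.0571) that shrank to -205 without P18 replicate 3. Without this library 6746 genes passed the test.

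**Figure D1:**
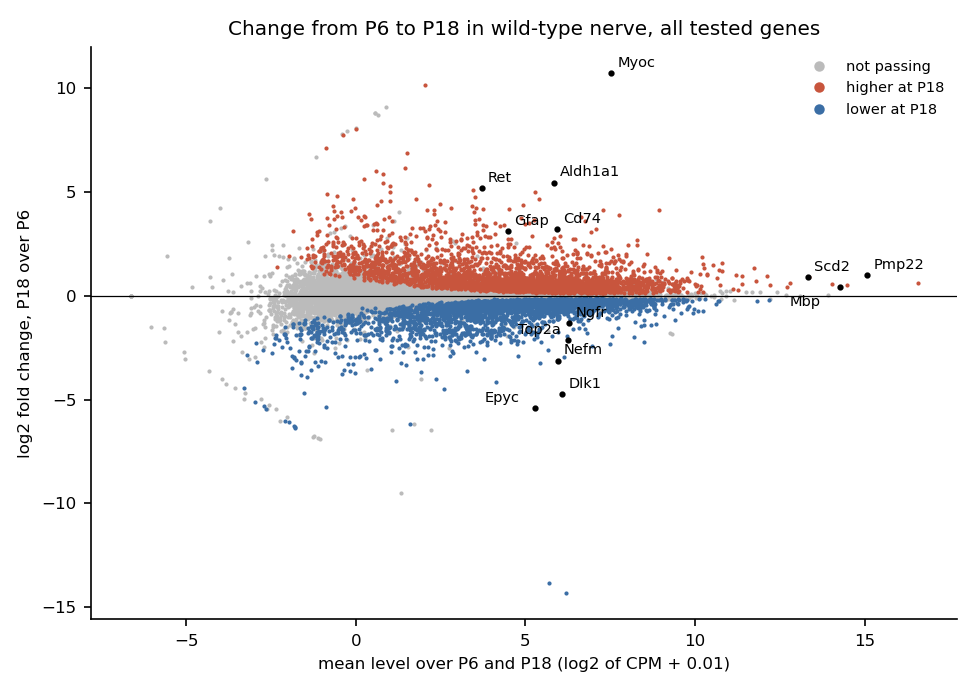
Each point is a tested gene, with its mean level over P6 and P18 (log2 of CPM plus 0.01) on the horizontal axis and its log2 fold change from P6 to P18 in Wt nerve on the vertical axis. Red genes (3249) were higher and blue genes (3373) lower at P18, grey genes did not pass, and black points mark genes described in the text, from Myoc at the top to Epyc and Dlk1 among the lower ones.

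Among the compact myelin proteins, 7 of 8 were higher at P18 and 1 did not pass, with a median log2 fold change of 0.83. Together they held 12.1%, 12.8%, 12.8% and 12.4% at P6 and 17.6%, 17.6%, 16.9% and 17.3% at P18. Every P18 library was above every P6 library, by 4.81 percentage points on average (two-sided exact permutation test, p = 0.0286, the smallest possible). Pmp22, the tetraspan membrane protein whose dosage sets CMT1A, had 22924, 23991, 22820.4 and 22671 CPM at P6 and 44516, 45597, 46154 and 46349 at P18. Its level about doubled with no overlap between ages, a log2 fold change of 0.98 (SE 0.06, Benjamini-Hochberg adjusted p = 4.1e-12, edgeR quasi-likelihood F test). Mbp, which draws the cytoplasmic faces of the membrane together, had 14737, 16939, 18853 and 17302 CPM at P6 and 25174, 23462, 20073 and 21126 at P18. The lowest P18 library, replicate 3, was only just above the highest P6 library, and the log2 fold change was 0.41 (SE 0.10, Benjamini-Hochberg adjusted p = 0.00253, edgeR quasi-likelihood F test). With total counts only it was 0.19 and did not pass.

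Other members of the list rose too. Pmp2, a fatty acid binding protein of the sheath, had 1983, 1860.1, 2001 and 1794 CPM at P6 and 3913, 4532, 6230.1 and 4752 at P18. It had the largest rise of the list, 1.35 (SE 0.16), and its P18 libraries spread more widely than its P6 libraries. Cd9, a tetraspanin, rose by 0.999 (SE 0.06), Mal, a proteolipid of lipid rafts, by 0.95 (SE 0.10), and Pllp (plasmolipin) by 0.71 (SE 0.12), each without overlap between ages.

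In libraries labelled Tg the median change of the compact myelin proteins over the same days was -0.04, and for 6 of 8 members the change was more positive in libraries labelled Wt. For Pmp22 the change was 0.98 with the label Wt and -0.01 with the label Tg, a difference of 0.99 (SE 0.08, Benjamini-Hochberg adjusted p = 3.0e-08, edgeR quasi-likelihood F test). The earlier step from E21 to P6, which shares the P6 Wt libraries with the later one, had a median of 3.97 over the same list, with 4.14 for Pmp22.

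**Figure D2:**
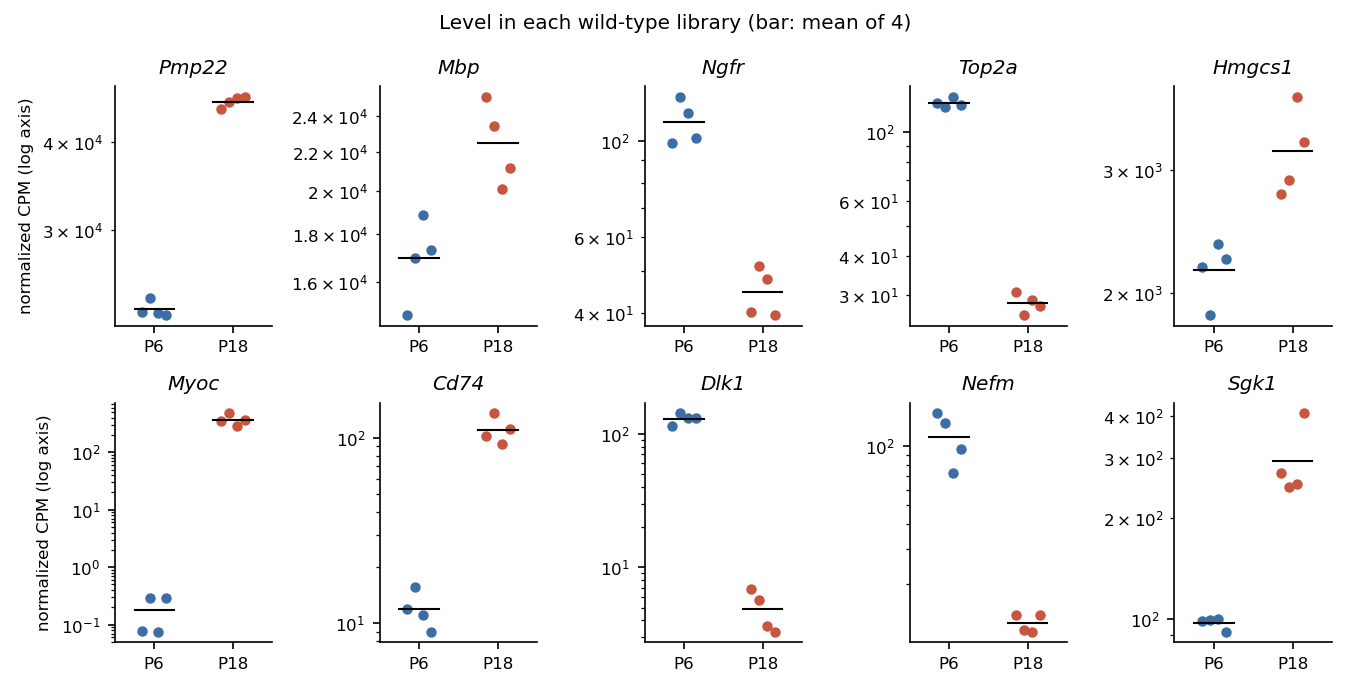
Level of 10 genes in each of the 8 Wt libraries (TMM-normalized CPM on a log axis whose range differs between panels), with points for libraries and a bar for the mean of 4. The P6 and P18 libraries do not overlap in any of these panels, with Pmp22, Mbp, Hmgcs1, Myoc, Cd74 and Sgk1 higher and Ngfr, Top2a, Dlk1 and Nefm lower at P18.

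Proteins of the non-compact parts of the sheath and of the membrane that faces the axon moved in both directions. Of 15, 8 were higher, 4 lower and 3 did not pass (median 0.28). Drp2, which links periaxin to dystroglycan at the outer face of the sheath, had 534, 528, 498 and 473 CPM at P6 and 1712, 1724, 1929 and 2012 at P18. No P6 library came near the P18 range, and the rise was 1.86 (SE 0.10, Benjamini-Hochberg adjusted p = 3.7e-13, edgeR quasi-likelihood F test). Prx, the periaxin gene, had 5638 ± 438 CPM at P6 and 7648 ± 894 at P18 (SD, n = 4 each), a rise of 0.44, and Ncmap, a protein of the non-compact sheath, rose by 0.98. Gjc3, which encodes the connexin of the inner membrane, went the other way with 159, 147, 136 and 125 CPM at P6 and 43.9, 41.4, 60.4 and 45.3 at P18. It was lower in all P18 libraries, with a log2 fold change of -1.57 (SE 0.11), after a change of 2.58 from E21 to P6. Utrn (utrophin) fell by 0.52.

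More enzymes of cholesterol synthesis were higher than lower at P18, although this depended on the scaling. Of the 20 enzymes from acetoacetyl-CoA to cholesterol, 12 were higher at P18, 1 was lower and 7 did not pass, with a median of 0.28. With total counts only, 5 were higher and 6 lower, and the median was 0.07. Hmgcs1, which makes HMG-CoA, was the most abundant, with 2178, 1862, 2351 and 2234 CPM at P6 and 2772, 2899, 3812 and 3288 at P18. Every P18 library exceeded every P6 library, and the log2 fold change was 0.57 (SE 0.09, Benjamini-Hochberg adjusted p = 2.3e-05, edgeR quasi-likelihood F test). Nsdhl, a sterol dehydrogenase that removes a methyl group of the ring, had 232, 219, 246 and 245 CPM at P6 and 359, 357, 474 and 442 at P18. Its ages were separate and its rise of 0.79 (SE 0.09) was the largest of the list, followed by Ebp, the sterol isomerase, at 0.74 (SE 0.07). Hsd17b7, which reduces the remaining keto group, fell by 0.31, with P6 and P18 libraries that overlapped. Over the same days the libraries labelled Tg had a median of -1.01, with 19 of 20 enzymes lower and 0 higher. Among all genes tested, 17.8% were lower and 17.8% higher under that label, with a median of -0.009. The change was more positive in libraries labelled Wt for 19 of the 20 enzymes. For Hmgcs1 the changes were 0.57 and -1.27, a difference of 1.83 (SE 0.13, Benjamini-Hochberg adjusted p = 3.0e-09, edgeR quasi-likelihood F test).

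Promoters of Hmgcs1 and Nsdhl are shown because these enzymes moved together. The sequences are RefSeq's for GRCr8, from 250 bases before to 50 after the gene start, whereas the counts were made on rn6. Hmgcs1 lies at chr2:53382054-53382353 on the plus strand and Nsdhl at chrX:155817110-155817409 on the plus strand. Capitals mark the letters CCAAT, the core of the box bound by NF-Y, read on either strand (ATTGG on the other), with 2 matches in Hmgcs1 and 5 in Nsdhl.
Hmgcs1: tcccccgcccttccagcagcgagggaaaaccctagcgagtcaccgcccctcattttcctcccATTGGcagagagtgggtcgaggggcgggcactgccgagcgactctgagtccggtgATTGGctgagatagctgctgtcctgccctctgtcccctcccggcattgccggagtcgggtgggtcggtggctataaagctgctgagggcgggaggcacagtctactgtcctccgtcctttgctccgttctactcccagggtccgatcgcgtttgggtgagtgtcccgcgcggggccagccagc
Nsdhl: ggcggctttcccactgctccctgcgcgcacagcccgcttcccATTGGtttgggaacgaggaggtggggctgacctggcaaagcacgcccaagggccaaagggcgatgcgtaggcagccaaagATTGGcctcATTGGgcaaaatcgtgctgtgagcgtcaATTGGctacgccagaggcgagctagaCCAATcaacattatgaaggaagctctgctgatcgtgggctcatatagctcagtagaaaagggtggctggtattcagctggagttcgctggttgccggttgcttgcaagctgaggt
These letters occur in 37.5% of all 33469 promoters of the same length. Of the 20 enzymes tested, 15 matched a promoter, which is 75% and below the 80% needed, so a share over the list is void and is not given. A match is a description of the letters and not of a bound site.

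Genes that regulate, take up and export cholesterol had 9 of 18 higher, 2 lower and 7 not passing (median 0.27). Apod, a lipid-carrying apolipoprotein, had 607, 640.1, 634 and 598 CPM at P6 and 1898, 1862, 1359 and 2006 at P18. No overlap was seen, and the rise was 1.52 (SE 0.12), against 3.34 in libraries labelled Tg. Apoe, the apolipoprotein that carries cholesterol between cells, rose by 1.88 (SE 0.19), from 82.4 ± 24.3 to 303 ± 60.7 CPM (SD, n = 4 each). Nr1h3, the oxysterol receptor LXR alpha, rose by 1.84 (SE 0.18). Abca1, a cholesterol exporter, had 232, 212, 219 and 204 CPM at P6 and 114, 119, 143 and 144 at P18. It fell in all P18 libraries, with a log2 fold change of -0.74 (SE 0.09), while its change in libraries labelled Tg was 1.21, a difference of -1.95 (SE 0.13, Benjamini-Hochberg adjusted p = 1.1e-09, edgeR quasi-likelihood F test).

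Fatty acid synthesis, elongation and desaturation had 10 of 20 genes higher, 2 lower and 8 not passing (median 0.26). The list held 1.07%, 1.04%, 1.07% and 1.05% at P6 and 1.49%, 1.51%, 1.55% and 1.52% at P18, without overlap. Its members summed to 10613, 10570, 10779 and 10406 CPM at P6 and 17265, 17720, 17824 and 17949 at P18. Scd2, a stearoyl-CoA desaturase, accounted for most of the rise in share, with 7292, 7174, 7330.4 and 6851 CPM at P6 and 12943, 13374, 13766 and 13741 at P18. Without Scd2, the shares of total counts held by the list overlapped between ages, whereas its TMM-scaled sums were higher in every P18 library. For Scd2 itself, all P18 libraries were far above the P6 range, and the rise was 0.91 (SE 0.07, Benjamini-Hochberg adjusted p = 1.2e-10, edgeR quasi-likelihood F test). Me1, the malic enzyme that supplies NADPH, rose by 1.58 (SE 0.22) and Acss2, which makes acetyl-CoA from acetate, by 0.98 (SE 0.08). Elovl4, an elongase of very long chain fatty acids, fell by 0.89. Fads2, a desaturase of polyunsaturated fatty acids, had overlapping libraries and a log2 fold change of -0.26 that no longer passed when certain libraries were left out (-0.22 without P6 replicate 4, -0.24 without P18 replicate 3 and -0.15 without P18 replicate 4). In libraries labelled Tg the median of the list was -0.35, and 16 of 20 members had a more positive change in libraries labelled Wt. Me1 is an example, at 1.58 under the label Wt and -0.38 under the label Tg.

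Of 18 genes of fatty acid oxidation, 4 were higher, 2 lower and 12 did not pass, beside 20.4% higher and 21.1% lower among all genes tested. Their median of 0.08 flipped to -0.13 with total counts only and to -0.01 with totals without the most abundant genes. Acadm, the medium-chain acyl-CoA dehydrogenase, rose by 0.60 (SE 0.06) and Hadh, a later enzyme of the cycle, by 0.49 (SE 0.07). Cpt1a, which passes fatty acids toward the mitochondrion, fell by 0.35. Acadl, the long-chain acyl-CoA dehydrogenase, fell by 0.24 with overlapping ages, and did not pass with only the groups compared (-0.25), without the 2 muscle-rich libraries (-0.20), or without P6 replicate 4 or P18 replicate 2 (-0.18 and -0.19). Acsl1, an acyl-CoA synthetase and the most abundant of the list, had 174, 155, 165 and 296 CPM at P6 and 210.3, 229, 279.9 and 211 at P18. P6 replicate 4 was high, the ages overlapped, and the log2 fold change of 0.23 (SE 0.20) did not pass, whereas it passed at 0.50 without that library.

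In sphingolipid and galactolipid synthesis, 9 of 17 genes were higher, 3 lower and 5 did not pass. The median was 0.18, and 0.00 with total counts only, which is the value of Cers1, a gene with 0 counts in all 8 libraries that entered the test through other groups. Without Cers1 the median was 0.23. Ugt8, which makes the galactocerebroside of myelin, had 2087, 1843, 1804 and 1637 CPM at P6 and 3098, 3027, 4326 and 3610.0 at P18. All P18 libraries were above all P6 libraries, and the rise was 0.93 (SE 0.10, Benjamini-Hochberg adjusted p = 1.1e-07, edgeR quasi-likelihood F test), set beside -0.45 in libraries labelled Tg. Degs2, a desaturase and hydroxylase of dihydroceramide, had 0, 2, 1 and 1 counts at P6 and 37, 56, 17 and 79 at P18. Its rise was a pooled ratio of 67.9 (26.1 to 252, 95% interval), and such intervals cover counting error only. Sgms2, a sphingomyelin synthase, rose by 1.36. St3gal5, which makes the first ganglioside, had 41.9 ± 1.04 CPM at P6 and 17.0 ± 1.78 at P18 (SD, n = 4 each) and fell by 1.30. Gal3st1, which adds sulfate to galactocerebroside, fell by 0.59, although its libraries overlapped.

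Phospholipid and plasmalogen synthesis had 10 of 29 genes higher, 5 lower and 14 not passing (median 0.16). The median was 0.09 without P6 replicate 3 and -0.05 with total counts only. Over the alternatives, 4 to 12 genes were higher and 4 to 8 lower. Lpin3, a phosphatidate phosphatase, rose by 1.16 (SE 0.13) and Ptdss2, a phosphatidylserine synthase, by 0.54 (SE 0.08). Etnk2, an ethanolamine kinase, fell by 0.72 and Agpat4, an acyltransferase, by 0.57. Far1, which makes the fatty alcohols of plasmalogens, did not pass, at 0.17. It passed without the 2 muscle-rich libraries (0.35), and was -0.01 without P18 replicate 3 and -0.05 with total counts only.

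**Figure D3:**
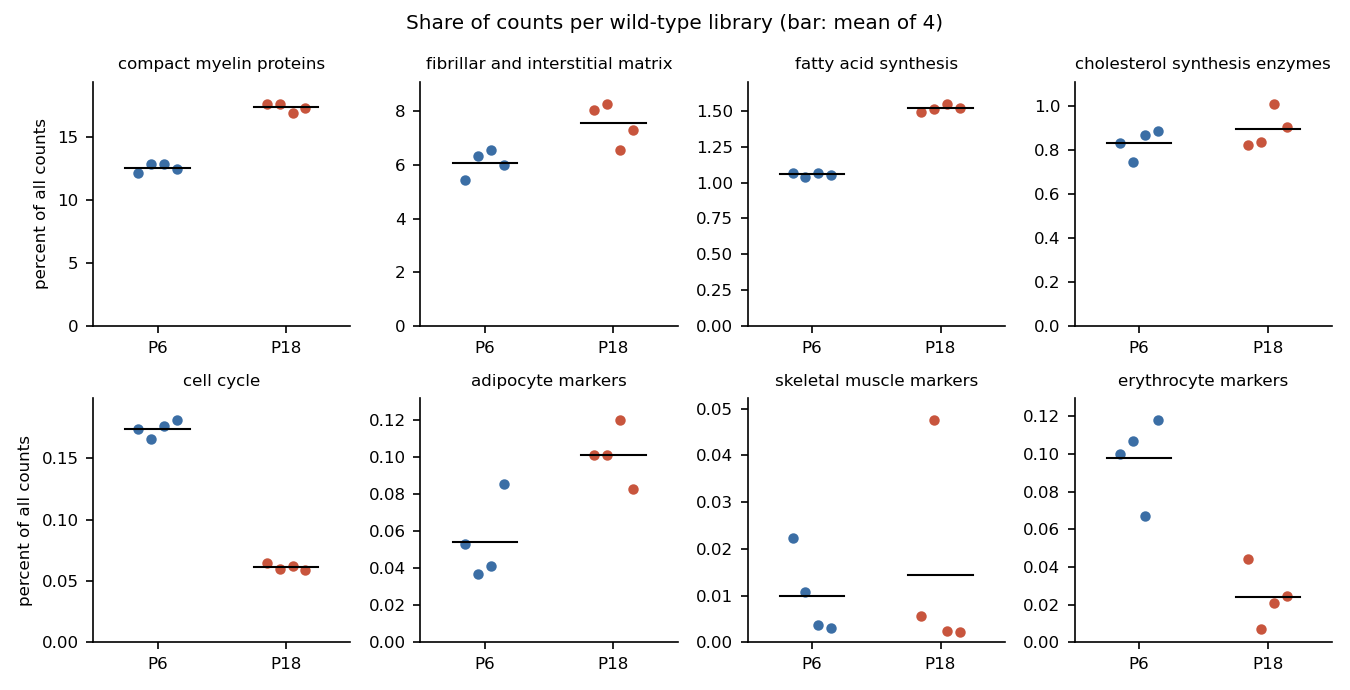
Percent of all counts held by 8 gene lists in each of the 8 Wt libraries, with points for libraries and a bar for the mean of 4, each axis starting at 0. Compact myelin proteins, fatty acid synthesis and matrix genes took larger shares at P18, cell cycle genes a smaller one, and the skeletal muscle genes stood out in P18 replicate 2.

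Transcription factors of the myelin programme were mostly lower at P18. Of 15 tested, 3 were higher, 9 lower and 3 did not pass (median -0.26), and Pou3f1 was not analysed here. Egr2, the zinc finger factor that drives myelin genes, had 194, 235, 233 and 223 CPM at P6 and 341, 319.7, 332 and 419 at P18. It rose in all P18 libraries, by 0.68 (SE 0.14, Benjamini-Hochberg adjusted p = 6.3e-04, edgeR quasi-likelihood F test), and by 0.67 in libraries labelled Tg. Nab1, a partner of Egr2, rose by 0.62 (SE 0.08). Sox10 fell by 0.56 (SE 0.15), with libraries that overlapped between ages. Pou3f2, a POU factor of the promyelinating stage, had 13.2, 17.3, 16.8 and 16.9 CPM at P6 and 8.35, 8.19, 3.90 and 6.42 at P18. Every P18 library was below every P6 library, with a fall of 1.24, whereas the change in libraries labelled Tg was 0.10, a difference of -1.34 (SE 0.21, Benjamini-Hochberg adjusted p = 1.3e-04, edgeR quasi-likelihood F test). Rxrg, a retinoid X receptor, fell by 1.02.

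Of 15 genes of signalling between axon and Schwann cell, 4 were higher, 4 lower and 7 did not pass, beside 20.4% higher and 21.1% lower among all genes tested. Their median of 0.02 flipped to -0.20 with total counts only, to -0.08 with totals without the most abundant genes and to -0.01 without P6 replicate 2. Itgb4, a subunit of the laminin receptor of myelinating Schwann cells, had 359, 414, 456 and 436 CPM at P6 and 1158, 1036, 721 and 952 at P18. It rose in every P18 library, by 1.22 (SE 0.11, Benjamini-Hochberg adjusted p = 3.0e-09, edgeR quasi-likelihood F test). Lgi4, a secreted ligand needed for axon sorting, rose by 0.68 (SE 0.08). Adam17, a protease that inhibits myelination by cutting Nrg1, had 225, 241, 246 and 272 CPM at P6 and 131, 128, 134 and 131 at P18. Its ages were far apart, with a fall of 0.91, and the fall was smaller in libraries labelled Tg, at -0.29, a difference of -0.62 (SE 0.10, Benjamini-Hochberg adjusted p = 1.6e-04, edgeR quasi-likelihood F test). Hhip, an inhibitor of hedgehog signals, fell by 0.96. Itga6, an integrin subunit, did not pass, at 0.15 (SE 0.06), was -0.07 with total counts only, and passed with DESeq2 (0.15), upper quartile factors (0.17), without the 2 muscle-rich libraries (0.22), and without P6 replicate 1 (0.17) or P18 replicate 1 or 2 (0.19 each).

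Genes of immature, repair or non-myelinating Schwann cells did not move as 1 group. Of 21 tested, 5 were higher, 9 lower and 7 did not pass (median -0.09), and Gdnf and Pax3 were below the count filter. Ngfr, the low-affinity neurotrophin receptor, had 98.9, 126, 116 and 102 CPM at P6 and 40.2, 51.3, 48.0 and 39.6 at P18. The highest P18 library was below the lowest P6 library, and the fall gave a log2 fold change of -1.31 (SE 0.10, Benjamini-Hochberg adjusted p = 2.2e-10, edgeR quasi-likelihood F test). Egr3, a factor related to Egr2, had 9.18, 15.1, 15.2 and 14.2 CPM at P6 and 3.25, 2.83, 2.13 and 4.20 at P18. It fell without overlap, by 2.09. Gfap, an intermediate filament of non-myelinating Schwann cells, had 2.80, 4.98, 5.61 and 5.09 CPM at P6 and 40.4, 44.5, 35.6 and 39.4 at P18. It rose in every P18 library, with a log2 fold change of 3.10 (SE 0.26, Benjamini-Hochberg adjusted p = 3.1e-09, edgeR quasi-likelihood F test). Shh, the hedgehog ligand, had 0, 2, 1 and 0 counts at P6 and 33, 49, 29 and 42 at P18. Nearly all of its counts came at P18, a pooled ratio of 73.2 (24.6 to 359, 95% interval), and its log2 fold change of 5.98 was 6.76 without P6 replicate 2. Scn7a, a sodium channel of non-myelinating Schwann cells, rose by 0.73 (SE 0.14).

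In libraries labelled Tg this list had a median of 0.51 over the same days, and all 12 members whose changes differed had the more negative change in libraries labelled Wt. In the P18 libraries labelled Tg, Ngfr had 217, 184, 199 and 231 CPM, all above those of both ages labelled Wt. Its change was -1.31 with the label Wt and 1.04 with the label Tg, a difference of -2.34 (SE 0.14, Benjamini-Hochberg adjusted p = 1.8e-10, edgeR quasi-likelihood F test). For Gfap both were positive, at 3.10 and 4.51.

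Cell cycle genes fell together. Of 39 tested, 37 were lower at P18 and 2 did not pass, and the 37 genes in which every P18 library was below every P6 library contrast with 16.5% of all genes. The median was -1.72. Top2a, the topoisomerase that separates chromosomes in dividing cells, had 124, 120.4, 129 and 121 CPM at P6 and 30.6, 25.9, 28.8 and 27.6 at P18. Its libraries were tightly grouped at both ages, and the log2 fold change was -2.13 (SE 0.08, Benjamini-Hochberg adjusted p = 4.1e-15, edgeR quasi-likelihood F test). Mybl2, a factor of late cell cycle genes, had 15.1, 16.8, 17.3 and 17.1 CPM at P6 and 4.84, 3.07, 2.25 and 2.35 at P18. With no overlap, it had the largest fall of the list, 2.40, next to Cenpa, a centromere histone, at 2.36. Ccnd1, the cyclin that starts the cycle and the most abundant of the list, had 265, 274, 301 and 299 CPM at P6 and 163, 157, 127 and 116 at P18. It fell by 1.01 in libraries labelled Wt, while in libraries labelled Tg its change was 0.21, a difference of -1.23 (SE 0.13, Benjamini-Hochberg adjusted p = 5.5e-07, edgeR quasi-likelihood F test). The list fell in libraries labelled Tg as well (median -1.05, 37 lower, beside 17.8% lower among all genes under that label). For 24 members the change was more negative in libraries labelled Wt. From E21 to P6, the step that shares the P6 Wt libraries, the median was -1.92.

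Promoters of Top2a, of the kinase gene Cdk1 and of the kinesin gene Kif23, which separates daughter cells, are shown as examples of members that moved together. Cdk1 and Kif23 were chosen for their sequence after the letters had been searched. In GRCr8, as given by RefSeq, they lie at chr10:84473044-84473343 (minus strand), chr20:19265043-19265342 (plus strand) and chr8:71320535-71320834 (minus strand). Capitals mark CCAAT and TTTGAA, the latter being the letters of the cell cycle homology region, each read on both strands (ATTGG and TTCAAA on the other), with no overlap between the 2 motifs.
Top2a: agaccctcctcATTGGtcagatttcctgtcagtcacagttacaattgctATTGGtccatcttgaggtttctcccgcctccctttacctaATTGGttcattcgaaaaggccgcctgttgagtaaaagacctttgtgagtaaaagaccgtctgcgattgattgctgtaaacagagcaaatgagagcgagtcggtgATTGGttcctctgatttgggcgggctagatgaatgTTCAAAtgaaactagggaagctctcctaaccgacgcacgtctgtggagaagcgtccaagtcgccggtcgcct
Cdk1: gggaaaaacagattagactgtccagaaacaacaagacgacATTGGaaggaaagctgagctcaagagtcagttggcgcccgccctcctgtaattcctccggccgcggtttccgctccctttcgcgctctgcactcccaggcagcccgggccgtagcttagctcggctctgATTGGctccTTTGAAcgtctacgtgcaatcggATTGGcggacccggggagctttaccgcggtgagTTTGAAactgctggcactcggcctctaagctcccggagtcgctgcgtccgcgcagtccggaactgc
Kif23: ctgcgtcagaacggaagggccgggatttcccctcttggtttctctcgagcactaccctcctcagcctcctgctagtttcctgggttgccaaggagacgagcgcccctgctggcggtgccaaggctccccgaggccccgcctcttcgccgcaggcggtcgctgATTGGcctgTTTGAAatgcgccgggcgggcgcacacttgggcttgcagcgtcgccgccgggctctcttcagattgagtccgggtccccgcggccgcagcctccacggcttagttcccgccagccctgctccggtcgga
Top2a had 4 matches of CCAAT and 1 of TTTGAA, Cdk1 had 3 and 2, and Kif23 had 1 and 1. Of all 33469 promoters, 37.5% hold CCAAT, 18.3% hold TTTGAA and 7.41% hold both. Of the 39 members tested, 29 matched a promoter (74.4%, below 80%), so a share over this list is void too.

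**Figure D4:**
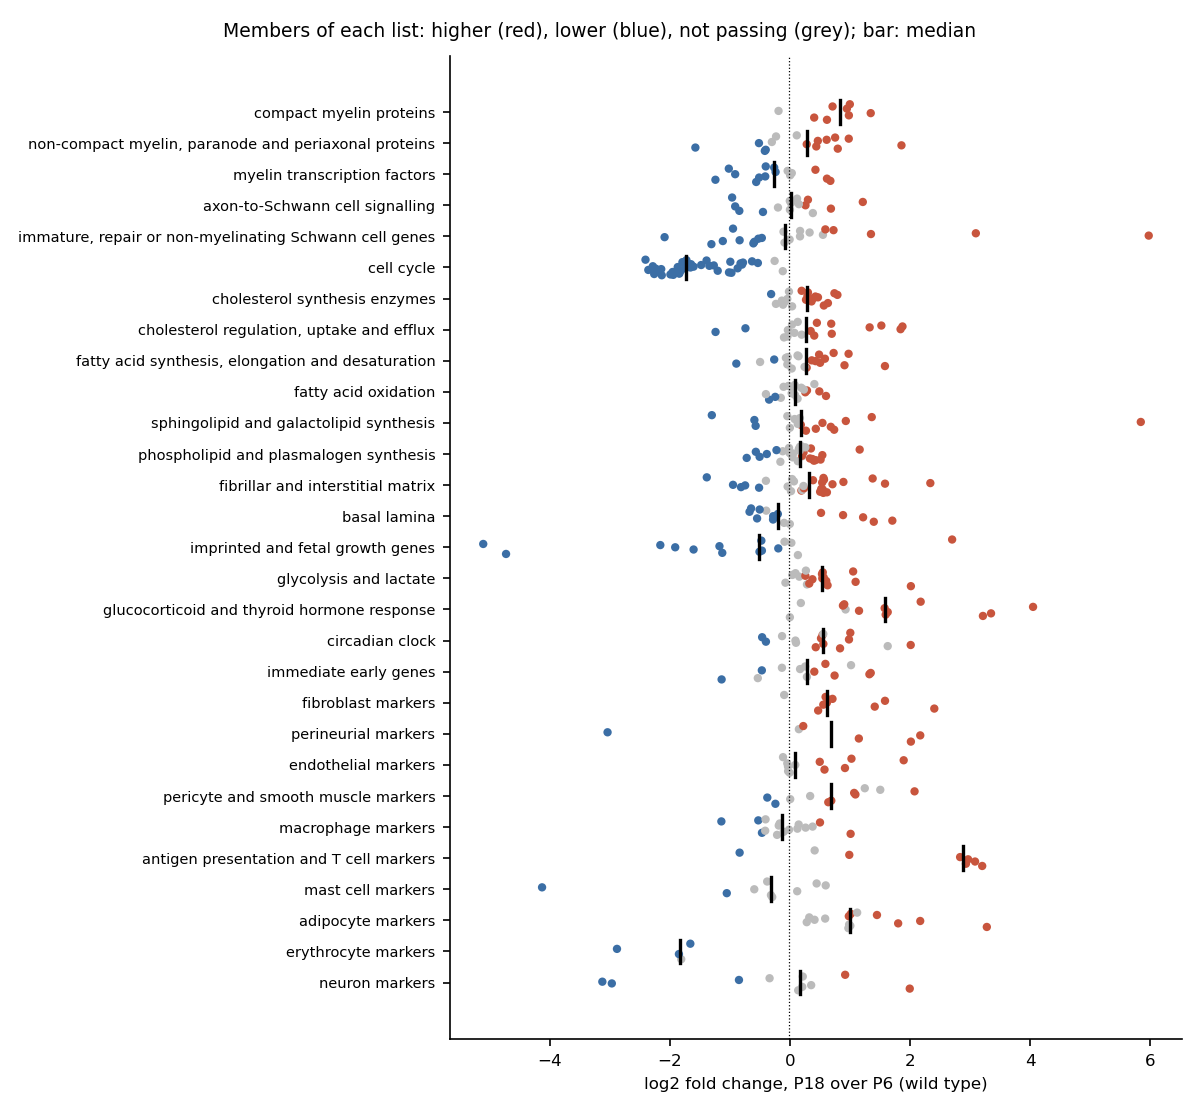
Log2 fold change from P6 to P18 of each tested member of 29 gene lists in Wt nerve (those of muscle and of Y-linked genes are left out), 1 list per row, with higher genes in red, lower genes in blue and genes that did not pass in grey. Black bars are list medians, and the dotted line is the median of all genes tested, -0.02. Cell cycle genes lie to the left, and genes of antigen presentation and of hormone response to the right.

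Imprinted and fetal growth genes were mostly lower, 11 of 15, with 1 higher and 3 not passing (median -0.51). Dlk1, a paternally expressed membrane protein of immature tissues, had 115, 142, 132 and 131 CPM at P6 and 6.86, 5.66, 3.66 and 3.31 at P18. It had nearly gone from every P18 library, with a log2 fold change of -4.73 (SE 0.21, Benjamini-Hochberg adjusted p = 1.6e-13, edgeR quasi-likelihood F test), and the change in libraries labelled Tg was -4.69. Hmga2, a chromatin protein of fetal cells, had 1, 7, 5 and 5 counts at P6 and 0, 0, 0 and 0 at P18, at least 4.12-fold lower at P18 against a floor of 3 counts over the group. Igf2, the fetal growth factor and the most abundant of the list, had 1096, 1135, 1088 and 1087 CPM at P6 and 1125, 1482, 1004 and 1221 at P18. The ages overlapped and it did not pass, at 0.13 (SE 0.10), with -0.08 under total counts only, while in libraries labelled Tg its change was -0.73. Igfbp2, which binds insulin-like growth factors, rose by 2.70 (SE 0.53) from low levels, and by 1.90 without the 2 muscle-rich libraries.

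The interstitial matrix grew in its share of counts. Of 28 genes, 16 were higher, 5 lower and 7 did not pass (median 0.31), and the list held 5.46%, 6.34%, 6.55% and 6.02% at P6 and 8.06%, 8.29%, 6.57% and 7.32% at P18, with P18 replicate 3 only just above the highest P6 library. Col3a1, a fibrillar collagen, had 17361, 20547, 19719 and 18231 CPM at P6 and 27673, 30309, 22354 and 27224 at P18. It rose without overlap by 0.50 (SE 0.11), Col1a2 by 0.62 (SE 0.14) and Sparc, which binds collagen, by 0.89 (SE 0.08). Dcn (decorin), a proteoglycan that coats collagen fibrils, had 911, 913, 898 and 824 CPM at P6 and 2306, 2637, 2648 and 3046 at P18. All P18 libraries were well above the P6 range, with a rise of 1.58 (SE 0.12, Benjamini-Hochberg adjusted p = 2.8e-10, edgeR quasi-likelihood F test). Fmod, a related proteoglycan, rose by 2.34 (SE 0.49). Fbn2, the fibrillin of early tissue, had 150.3, 158, 151 and 145 CPM at P6 and 73.9, 59.2, 45.0 and 53.0 at P18. It fell in every P18 library, by 1.38. Tnc (tenascin C) fell by 0.95 in libraries labelled Wt, while its change in libraries labelled Tg was 0.50, a difference of -1.45 (SE 0.17, Benjamini-Hochberg adjusted p = 2.0e-06, edgeR quasi-likelihood F test).

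In the basal lamina, 5 of 15 genes were higher, 7 lower and 3 did not pass (median -0.20), beside 20.4% higher and 21.1% lower among all genes tested. Col4a5, a collagen IV chain, had 20.8, 22.0, 22.8 and 20.2 CPM at P6 and 54.3, 59.5, 52.4 and 59.8 at P18. It rose without overlap by 1.40 (SE 0.14), and Col4a6, the chain it pairs with, by 1.71 (SE 0.32). Nid2 (nidogen 2) fell by 0.67 and Col18a1 by 0.65. Col4a1, the most abundant of the list at P6, had overlapping libraries and a log2 fold change of -0.001 that did not pass.

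Markers of fibroblasts were higher in 8 of 9 cases, with 1 not passing (median 0.62). Col1a1, Col1a2, Dcn and Lum, all among the higher ones, are counted in the matrix list too. Dpt (dermatopontin), a matrix protein of fibroblasts, had 57.5, 45.2, 53.0 and 41.4 CPM at P6 and 234, 299, 248 and 259.6 at P18. It rose in every P18 library, by 2.41 (SE 0.29, Benjamini-Hochberg adjusted p = 1.4e-06, edgeR quasi-likelihood F test). Col1a1 had 13524 ± 2287 CPM at P6 and 19902 ± 3708 at P18 (SD, n = 4 each) and rose by 0.56, with P18 replicate 3 inside the P6 range. Of the perineurial markers, 4 of 6 were higher, 1 was lower and 1 did not pass (median 0.69). Slc2a1, the glucose transporter of barrier cells, had 38.7, 44.7, 49.8 and 43.7 CPM at P6 and 197, 192, 144 and 182 at P18. The ages were far apart, with a rise of 2.02 (SE 0.11, Benjamini-Hochberg adjusted p = 1.0e-12, edgeR quasi-likelihood F test). Cldn1, a tight junction protein, rose by 1.15 (SE 0.12) and Slc47a1, a transporter, by 2.17 (SE 0.52), while Tjp1, a junction scaffold, had overlapping libraries and passed at 0.22 (SE 0.07), but not with total counts only (0.01), with totals without the most abundant genes (0.13) or with only the groups compared (0.22). Moxd1, a monooxygenase, had 6.61, 6.78, 6.52 and 8.08 CPM at P6 and 0.703, 0.964, 1.30 and 0.572 at P18. It fell by 3.04 in libraries labelled Wt, while its change in libraries labelled Tg was 0.04, a difference of -3.08 (SE 0.30, Benjamini-Hochberg adjusted p = 2.0e-07, edgeR quasi-likelihood F test). Krt23 and Lypd2, other markers of the perineurium, were at or near 0 counts.

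Of the endothelial markers, 5 of 11 were higher and 6 did not pass, with a median of 0.09 that flipped to -0.13 with total counts only and to -0.00473 with totals without the most abundant genes. Cldn5, the claudin of vessel barriers, had 17.1, 17.6, 22.2 and 19.9 CPM at P6 and 78.3, 79.8, 54.0 and 72.8 at P18. It rose in each P18 library, by 1.90 (SE 0.46), and Vwf, the clotting factor of vessel walls, by 1.03 (SE 0.30). Cdh5, the cadherin of endothelium, had overlapping libraries (156 ± 11.5 CPM at P6 and 156 ± 15.6 at P18, SD, n = 4 each) and did not pass. Markers of pericytes and smooth muscle had 5 of 11 higher, 2 lower and 4 not passing (median 0.69). Myh11, the smooth muscle myosin, had 40.0, 31.8, 29.04 and 39.3 CPM at P6 and 131, 188, 123 and 148 at P18. No overlap was seen, and the rise was 2.08 (SE 0.49). Acta2, the smooth muscle actin, rose by 1.09 (SE 0.35) but did not pass without P6 replicate 2, at 1.01. Pdgfrb, the growth factor receptor of pericytes, fell by 0.24 with overlapping ages, and did not pass with only the groups compared (-0.24). Kcnj8, a potassium channel subunit, fell by 0.38, and did not pass with the Y-linked covariate (-0.36) or without P6 replicate 1 or P18 replicates 1, 3 or 4 (-0.37 to -0.28).

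Antigen presentation stood out among immune genes. Of the 8 genes of antigen presentation and T cells tested, 6 were higher, 1 was lower and 1 did not pass (median 2.88), and 4 T cell genes were below the count filter. Cd74, the invariant chain of MHC class II, had 12.0, 15.7, 11.1 and 9.03 CPM at P6 and 102, 135, 92.0 and 112 at P18. All P18 libraries were several times higher than any P6 library, with a log2 fold change of 3.20 (SE 0.25, Benjamini-Hochberg adjusted p = 1.9e-09, edgeR quasi-likelihood F test). RT1-Bb, a class II chain, had 2.57, 2.49, 2.58 and 2.50 CPM at P6 and 14.3, 28.1, 17.97 and 25.3 at P18. It rose by 3.08 (SE 0.33) without overlap. The changes of Cd74 were 3.20 and 4.33 in libraries labelled Wt and Tg, a difference of -1.13 (SE 0.34, Benjamini-Hochberg adjusted p = 0.0368, edgeR quasi-likelihood F test). Cd3g, a chain of the T cell receptor complex, fell by 0.84 but did not pass without P6 replicate 1 (-0.73) or P18 replicates 1 (-0.68) or 4 (-0.74).

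Of the 16 macrophage markers, 2 were higher, 3 lower and 11 did not pass (median -0.14, and -0.07 without P18 replicate 1). Among all genes tested, 20.4% were higher and 21.1% lower. Cd163, a scavenger receptor, rose by 1.01 (SE 0.19) and Cx3cr1, the fractalkine receptor, fell by 1.14. Tyrobp, an adaptor of myeloid receptors, fell by 0.53 with overlapping ages, and did not pass with only the groups compared (-0.53), with the Y-linked covariate (-0.38), or without P6 replicate 3 or 4 or P18 replicate 3 or 4 (-0.49 to -0.39). Lyz2 (lysozyme), the most abundant of the list, had 83.3, 93.4, 99.3 and 131 CPM at P6 and 127, 155, 119 and 176 at P18. Its libraries overlapped, and its log2 fold change of 0.50 was between 0.41 and 0.49 and did not pass without P6 replicate 1, 2 or 3 or P18 replicate 2 or 4, nor with total counts only (0.29) or totals without the most abundant genes (0.41). Of the mast cell markers, 2 of 9 were lower and 7 did not pass (median -0.32, and -0.18 without P6 replicate 4), beside 21.1% lower among all genes tested. Mcpt1, a mast cell protease, had 51, 91, 47 and 140 counts at P6 and 1, 5, 6 and 0 at P18. It fell in every P18 library, with a log2 fold change of -4.13 (SE 0.58, Benjamini-Hochberg adjusted p = 4.4e-06, edgeR quasi-likelihood F test) that was -4.89 without P18 replicate 3. Tpsab1, a tryptase, fell by 1.05, and did not pass without P6 replicate 4, P18 replicate 2 or P18 replicate 3 (-0.80, -0.99 and -0.82). Cpa3, another protease of these cells and the most abundant of the list, did not pass, at -0.29 (SE 0.42).

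Glycolysis and lactate genes rose or did not pass. Of 19, 13 were higher and 6 did not pass (median 0.54, and 0.42 without the 2 libraries with the most muscle transcripts). Slc2a1, given above with the perineurial markers, is counted in this list too. Pfkm, a phosphofructokinase that muscle also expresses, had 128, 137, 136 and 130.4 CPM at P6 and 298, 295, 247 and 295 at P18. It rose in each P18 library, by 1.09 (SE 0.15). Gapdh had 358 ± 46.9 CPM at P6 and 529 ± 128 at P18 (SD, n = 4 each), with P18 replicate 3 inside the P6 range. Its log2 fold change of 0.56 did not pass without the 2 libraries rich in muscle transcripts, at 0.42, or with total counts only, at 0.35.

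Genes that respond to glucocorticoids or thyroid hormone were higher in 10 of 13 cases and did not pass in 3, with a median of 1.58. For none of the 13 did the change differ from that in libraries labelled Tg by edgeR's test at an adjusted p under 0.05, and the median there was 1.29. The share over all genes tested was 9.94%, so a count of 0 among 13 does not set this list apart. Sgk1, a kinase induced by glucocorticoids, had 98.4, 99.2, 100.3 and 91.9 CPM at P6 and 271, 247, 252 and 408 at P18. P18 replicate 4 was the highest, all P18 libraries exceeded all P6 libraries, and the rise was 1.596 (SE 0.15, Benjamini-Hochberg adjusted p = 9.7e-09, edgeR quasi-likelihood F test). Zbtb16, a factor induced by the same hormones, had 0.700, 0.735, 0.683 and 1.07 CPM at P6 and 13.6, 8.13, 5.32 and 6.23 at P18. It rose without overlap by 3.35 (SE 0.39). Thrsp, a thyroid hormone responsive gene of fat-making cells, had 0, 0.163, 0.758 and 3.77 CPM at P6 and 27.7, 23.7, 21.2 and 12.8 at P18. It rose by 4.05 (SE 0.78), with P6 replicate 4 above the other P6 libraries, and by 6.19 without that library.

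Clock genes had 8 of 15 higher, 2 lower and 5 not passing (median 0.54). Per1, a repressor of the clock, had 26.7, 31.6, 40.3 and 36.5 CPM at P6 and 137, 136, 112 and 161 at P18. Its ages did not overlap, and the rise was 2.01 (SE 0.19, Benjamini-Hochberg adjusted p = 3.1e-08, edgeR quasi-likelihood F test). Bhlhe41 rose by 1.01 (SE 0.29) and Nr1d2, a repressor of the loop, by 0.52 (SE 0.08), while Arntl, the activator of the loop, fell by 0.46. Cry1, a repressor, fell by 0.40 with overlapping ages, and did not pass with only the groups compared (-0.40), without the 2 muscle-rich libraries (-0.38), or without P18 replicate 1 or 4 (-0.27 and -0.34). The time of day of each collection was not used here, and its part in these values was not tested. Immediate early genes had 5 of 13 higher, 2 lower and 6 not passing (median 0.28, with 0.17 without P18 replicate 1 and 0.49 without P18 replicate 3). Zfp36, an RNA-binding protein, rose by 1.35 (SE 0.12) and Dusp1, a phosphatase, by 1.32 (SE 0.16). Nr4a1, a nuclear receptor, rose by 0.41 (SE 0.14) with overlapping ages, and did not pass with total counts only (0.19), totals without the most abundant genes (0.32), only the groups compared (0.41), without the 2 muscle-rich libraries (0.26), or without P6 replicate 1 or P18 replicate 1 or 2 (0.27 to 0.39). Egr1 fell by 0.47, and did not pass with the Y-linked covariate (-0.44), without the 2 muscle-rich libraries (-0.45), or without P6 replicate 4 or P18 replicate 2 or 3 (-0.41 to -0.39). Fos had 11.6, 15.96, 23.1 and 18.8 CPM at P6 and 10.9, 7.53, 5.67 and 7.31 at P18. It fell by 1.14 in libraries labelled Wt, with a change of 0.93 in libraries labelled Tg, a difference of -2.07 (SE 0.29, Benjamini-Hochberg adjusted p = 4.0e-05, edgeR quasi-likelihood F test).

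**Figure D5:**
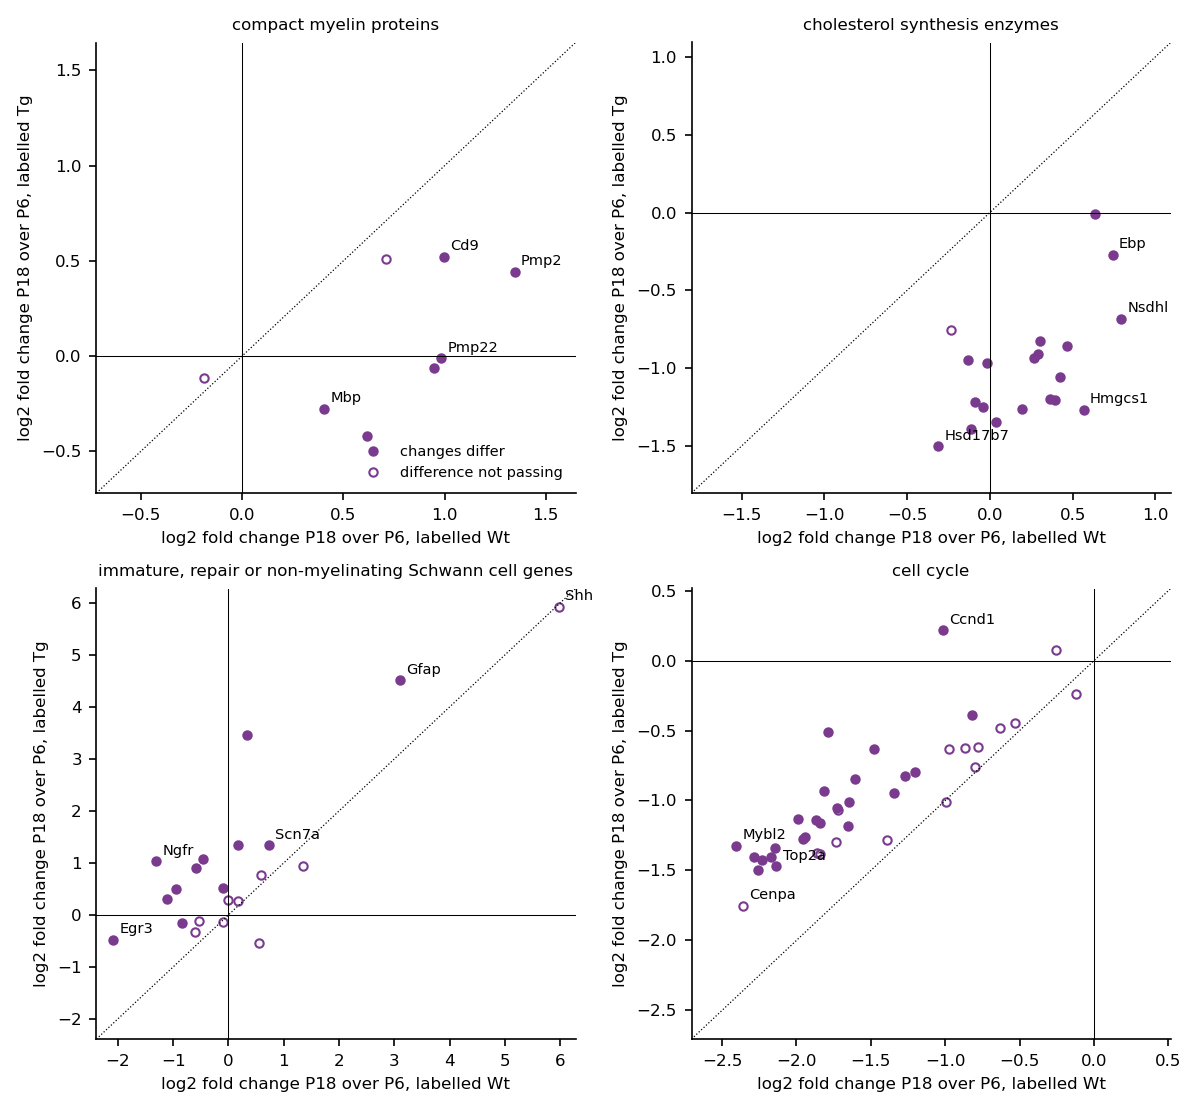
Log2 fold change from P6 to P18 in libraries labelled Wt (horizontal axis) and in libraries labelled Tg (vertical axis) for the members of 4 lists. Filled points are genes whose changes differed in the test of the difference, open points did not pass, and the dotted line marks equal changes. Cholesterol synthesis enzymes lie below the line, and most cell cycle genes lie above it.

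The largest rise that met the rule for naming genes was that of Myoc (myocilin), a secreted glycoprotein, with 1, 7, 1 and 7 counts at P6 and 4041, 7906, 2410 and 5691 at P18. It was close to undetected in every P6 library and abundant in every P18 library, a pooled ratio of 1799 (1108 to 3149, 95% interval). In libraries labelled Tg its log2 fold change was 10.96, set beside 10.72 in libraries labelled Wt. Cyp2e1, a cytochrome that oxidizes small molecules, had 2, 1, 0 and 0 counts at P6 and 119, 96, 22 and 57 at P18, a pooled ratio of 141 (47.7 to 686), and its log2 fold change of 6.87 was 7.93 without P6 replicate 1. Pln, an inhibitor of the calcium pump of the reticulum, had 3, 2, 4 and 6 counts at P6 and 79, 113, 101 and 137 at P18, a pooled ratio of 41.2 (24.7 to 74.2). In all of these genes the 2 ages were separate. Slco4c1, an organic anion transporter, had 1, 2, 2 and 0 counts at P6 and 50, 77, 59 and 86 at P18, a pooled ratio of 78.1 (33.1 to 243). Its log2 fold change was 6.14 in libraries labelled Wt and 1.06 in libraries labelled Tg, and the difference did not pass (5.08, Benjamini-Hochberg adjusted p = 0.245, edgeR quasi-likelihood F test).

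Other large rises were as follows. Aldh1a1, which makes retinoic acid, had 1.87, 2.25, 3.72 and 2.54 CPM at P6 and 102, 109, 124 and 112 at P18. All P18 libraries were tightly grouped far above P6, with a log2 fold change of 5.45 (SE 0.36, Benjamini-Hochberg adjusted p = 2.7e-10, edgeR quasi-likelihood F test). Ret, the receptor for ligands of the GDNF family, had 0.700, 0.694, 0.531 and 0.821 CPM at P6 and 28.4, 28.4, 27.2 and 17.7 at P18. P18 replicate 4 was lower than the other P18 libraries but far above P6, and the rise of 5.17 exceeded that of 3.13 in libraries labelled Tg, a difference of 2.04 (SE 0.35, Benjamini-Hochberg adjusted p = 3.3e-04, edgeR quasi-likelihood F test). Cpxm2, a carboxypeptidase-like protein, rose by 4.66 (SE 0.22), Slc6a13, a GABA transporter, by 5.08 (SE 0.84) and Ces1d, a carboxylesterase, by 4.76 (SE 0.64), which was 5.68 without P6 replicate 4. Fam163b had 2.02, 2.65, 2.20 and 2.26 CPM at P6 and 87.2, 7.59, 109.6 and 95.1 at P18. P18 replicate 2 was far below the other P18 libraries and still above every P6 library.

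Among the genes named by the same rule, the largest falls included genes that had been low at E21. Epyc (epiphycan), a small proteoglycan, had 67.5, 55.6, 78.6 and 103 CPM at P6 and 0.967, 1.93, 1.30 and 2.61 at P18. No P18 library exceeded 3 CPM, and the log2 fold change was -5.41 (SE 0.23, Benjamini-Hochberg adjusted p = 2.4e-14, edgeR quasi-likelihood F test), after a mean of 0.9497 ± 0.104 CPM at E21 (SD, n = 4). Oprk1, the kappa opioid receptor, had 97, 188, 37 and 141 counts at P6 and 1, 3, 0 and 0 at P18, a P6 level that was 80.6 times the P18 level in pooled counts (31.3 to 297). Its log2 fold change of -6.17 was -7.39 without P18 replicate 2, and its mean at E21 was 0.0239 ± 0.0291 CPM. Pon1, an esterase of lipoproteins, had 7.39, 6.98, 6.98 and 7.22 CPM at P6 and 0.264, 1.14, 0 and 0.509 at P18. It fell by 3.69 in libraries labelled Wt (4.53 without P18 replicate 2), while in libraries labelled Tg the change was -0.47, a difference of -3.22 (SE 0.45, Benjamini-Hochberg adjusted p = 5.6e-05, edgeR quasi-likelihood F test). Pnlip, a lipase, fell by 4.14 and Dct, an enzyme of melanin synthesis, by 3.64, both more than in libraries labelled Tg (-2.52 and -2.22). Prnd, a relative of the prion protein, fell by 3.99 and Tmem255a by 3.34 (4.11 without P18 replicate 2), without overlap. LOC100360791 and LOC100362027, which have only placeholder names, were set apart from the genes named by the rule, although the rule states no limit on names. They were chosen after their values were seen. They had means of 145.7 and 102.5 CPM at P6 and 0 CPM in all P18 libraries, and whether these 0 values come from the tissue or from how reads were assigned to genes in each library was not tested. Piwil4 and Fam111a fell by 4.48 and 3.23 and varied between libraries, with 115, 149, 25.2 and 22.2 CPM of Fam111a at P6 and 7.74, 4.88, 16.3 and 6.30 at P18.

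Among the genes with the highest share of counts at P18 were Pmp22, Col3a1, Mbp, Col1a1, Mt-co1, Sparc, Scd2, Mt-cox3 and Col1a2. The mitochondrial genes Mt-co1 at 0.05 and Mt-cox3 at -0.01, which encode subunits of the last respiratory complex, did not pass, although Mt-cox3 passed with total counts only, at -0.22.

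Markers of tissues other than the nerve's own were measured as well. Adipocyte genes summed to 523, 373, 415 and 854 CPM at P6 and 1168, 1189.6, 1375 and 973 at P18. P6 replicate 4 was high among the P6 libraries and still below all P18 libraries. As a share of all counts the ages overlapped, with 0.0858% in P6 replicate 4 and 0.0826% in P18 replicate 4. Of 14 tested, 6 were higher and 8 did not pass (median 0.997, and 1.49 without P6 replicate 4). Lpl, a lipase that Schwann cells also express and the most abundant of the list, rose by 1.45 (SE 0.22), with a change of -0.65 in libraries labelled Tg. Lep (leptin) had 0.545, 0.122, 0.455 and 1.52 CPM at P6 and 3.60, 5.30, 13.1 and 4.83 at P18 and Cfd (adipsin) had 3.97, 5.43, 6.98 and 10.96 CPM at P6 and 51.5, 37.5, 20.3 and 15.2 at P18. Both rose without overlap, by 3.28 (4.24 without P6 replicate 4) and 2.17, and Ucp1 was below the count filter. The part of adipose tissue in the rise of Thrsp and of the fatty acid genes was not tested.

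Erythrocyte genes summed to 988, 1090.5, 682 and 1173 CPM at P6 and 513, 81.4, 237 and 287 at P18. Of 4 tested, 3 were lower and 1 did not pass (median -1.83). Hbb, a haemoglobin chain that made up most of this sum, did not pass at -1.81 (SE 0.75), although every P18 library was below every P6 library. It passed without P18 replicate 1 (-2.27), with DESeq2 (-1.81), with only the groups compared (-1.81), with total counts only (-2.02) and with totals without the most abundant genes (-1.90). Slc4a1, the anion exchanger of red cells, fell by 2.88, Alas2, an enzyme of haem synthesis, by 1.85 and Ahsp, which stabilises globin, by 1.66. Alas2 did not pass without P6 replicate 1, 2 or 4 or P18 replicate 2, 3 or 4, with values from -1.87 to -1.50, and Ahsp did not pass without the 2 libraries with the most muscle transcripts, at -1.58.

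Neuron markers, whose transcripts may reach the nerve in axons, had 2 of 10 higher, 3 lower and 5 not passing, while Rbfox3 and Calca were below the count filter. Their median of 0.17 was -0.04 with total counts only, -0.02 without P6 replicate 4 and -0.05 without P18 replicate 1. Nefl, the light neurofilament, had 143, 146, 98.7 and 113 CPM at P6 and 17.8, 10.5, 12.9 and 22.7 at P18. It fell in every P18 library, with a log2 fold change of -2.97 (SE 0.28, Benjamini-Hochberg adjusted p = 3.4e-08, edgeR quasi-likelihood F test). In P18 libraries labelled Tg it had 324, 501, 643 and 599 CPM, all above every library labelled Wt of both ages, and the changes of -2.97 and 1.52 differed by -4.49 (SE 0.37, Benjamini-Hochberg adjusted p = 9.0e-08, edgeR quasi-likelihood F test). Nefm, the medium neurofilament, had 146, 130.2, 73.0 and 95.7 CPM at P6 and 13.9, 11.6, 11.5 and 13.9 at P18. It fell by 3.12 in libraries labelled Wt, and its change in libraries labelled Tg was 0.43. Gal (galanin), a neuropeptide, had overlapping libraries and passed at 0.92 (SE 0.26), but not with only the groups compared, at 0.92. Syt1, of the synaptic vesicle, had few counts, 3, 10, 2 and 6 at P6 and 28, 7, 13 and 3 at P18, and passed at 1.997 with overlapping libraries, but not without P6 replicate 1, 3 or 4 or P18 replicate 1 or 3 (1.24 to 1.95, lowest without P18 replicate 1).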

How the data were processed

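The deposited gene table holds expected counts, which the authors made from polyadenylated RNA reads with CASAVA 1.8.2, Bowtie2 2.0.2 and RSEM 1.2.29 against the rn6 rat genome, as deposited with the series. Counts were rounded to whole numbers, and where a symbol had several entries the one with the highest mean was used. Of the 32402 genes, 51 (0.157%) had no symbol. Counts were analysed in R 4.3.3 with edgeR 4.0.16 (TMM factors, 6 groups, 24 libraries, quasi-likelihood F test) on the 15951 genes whose normalized counts averaged 5 or more, with Benjamini-Hochberg adjustment over all of them. Standard errors were worked out from the fold change and the F value of each gene. Python 3.11.15 with numpy 2.4.6, pandas 2.3.3, scipy 1.17.1 and matplotlib 3.10.9 made the summaries and figures.

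Detection was compared after thinning each library to 9700631 counts. Pooled ratios carry exact 95% binomial intervals, and a group with no counts was set to a floor of 3 counts. Libraries of a group were compared in pairs to find duplicates, and chi-square per degree of freedom ran from 7.03 to 28.3, so none was a copy of another.

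Genes were named by rule: the 4 markers, in each of 31 lists up to 2 higher and 2 lower genes with the largest change that passed and the most abundant gene, every member of lists of at most 8, the 10 largest changes in each direction without overlap and with a mean of at least 5 CPM, and the 10 genes with the largest share of counts at P18. This named 153 genes, leaving out a few that are not reported here, and 5 more, besides the 2 placeholder names in the report, were chosen after their values were seen. Cdk1 and Kif23 are shown for their sequences, and Sox10 is given because the opening names it beside Egr2. The lists hold 504 members, of which 486 were matched by symbol. Members and lists were chosen with earlier results of these data known.

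The alternatives were DESeq2 1.42.0, total counts, DESeq2 size factors, upper quartile factors, totals without the 50 most abundant genes, no count filter, a mean count of at least 50, only the groups compared, a replicate block, and each library left out in turn. A covariate for Y-linked transcripts and leaving out the 2 libraries with the most muscle transcripts were chosen after seeing the data.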

Additional observations from a re-analysis of the deposited data

Results flagged for a closer look

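In 24 of 326 groups of 4 libraries checked, 1 library lay far from the other 3, where chance alone names about 1 in 20 groups. High in P6 replicate 1: Kcnj8 30.5, Vwf 63.7. Low in P6 replicate 1: Egr3 9.18, Etnk2 18.3, Igfbp2 0.0778, Pou3f2 13.2. High in P6 replicate 2: Sparc 8049.7. High in P6 replicate 4: Acsl1 296, Moxd1 8.08, Nr1h3 6.85, Oas1a 10.6, Zbtb16 1.07. Low in P6 replicate 4: Dcn 824. High in P18 replicate 1: Ddx3 86.1, Eif2s3y 67.8, Kdm5d 47.7. Low in P18 replicate 1: Acadm 65.2. High in P18 replicate 2: Acta1 130.1, Mb 4.04. Low in P18 replicate 3: Dct 0.118, Pfkm 247, genes detected at the common depth 15655. High in P18 replicate 4: Sgk1 408. Low in P18 replicate 4: Ret 17.7. Levels are in CPM except for genes detected.

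For 54 of 154 named genes the change from P6 to P18 differed between libraries labelled Wt and Tg, and the differences (log2, Wt minus Tg) follow. Over all genes tested the share was 9.94%. Many named genes were picked by the Wt change that enters the difference, so their count cannot be compared with that share. More positive with the label Wt: Lpl 2.10, Ret 2.04, Me1 1.96, Hmgcs1 1.83, Nsdhl 1.47, Acss2 1.42, Ugt8 1.38, Hsd17b7 1.19, Fads2 1.08. Further: Ebp 1.01, Mal 1.01, Pmp22 0.99, Acsl1 0.99, Pmp2 0.90, Cntf 0.88, Scd2 0.88, Igf2 0.86. Further: Mbp 0.68, Drp2 0.54, Nab1 0.49, Cd9 0.48, Ptdss2 0.45, Hadh 0.41, Itga6 0.35. More negative with the label Wt: Hmga2 -5.69, Nefl -4.49, Nefm -3.56, Pon1 -3.22, Cxcl10 -3.09, Moxd1 -3.08, Usp18 -2.71, Ngfr -2.34, Fos -2.07. Also: Abca1 -1.95, Apod -1.82, Pnlip -1.63, Egr3 -1.61, Egr1 -1.55, Tnc -1.45, Dct -1.43, Gfap -1.42, Pou3f2 -1.34. Also: Ccnd1 -1.23, Apoe -1.14, Cd74 -1.13, Mybl2 -1.08, Col18a1 -1.08, Lyz2 -0.82, Tyrobp -0.81, Top2a -0.66, Adam17 -0.62. Also: Scn7a -0.61, St3gal5 -0.60, Lgi4 -0.54. Hmga2 had 0 counts at P18 in all libraries labelled Wt, so its value has no fixed size.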

How the results depend on the processing

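The 6622 genes that passed became 6949 with DESeq2, 4937 with only the groups compared and 6005 to 6746 with 1 Wt library left out, and most named genes kept their side of the threshold (152 of 154 with DESeq2). Leaving out libraries gave 2903 to 3394 higher, 3004 to 3352 lower, 950 to 1031 at least 2-fold higher, 698 to 765 at least 2-fold lower and 1322 to 1854 genes whose changes differ. Total counts only gave 1980 higher, 6348 lower, 1130 at least 2-fold lower and 3133 with changes that differ, and a mean count of at least 50 gave 587 at least 2-fold higher, with fewer genes tested. The replicate block gave 6578 genes and 1573 with changes that differ. Replicate numbers did not pair the ages: same-number correlations were -0.37, 0.10, -0.09 and -0.09, and only replicate 2 matched its own number best. The top-10 share differed by 5.48 (without P18 replicate 2) to 6.19 points (without P18 replicate 3), two-sided exact permutation p = 0.0571, the smallest possible with 7 libraries, and detection by -890 to -205 genes. Median changes reversed as follows. Axon signalling: -0.195 (total counts), -0.0753 (totals without the most abundant genes), and -0.00581 to 0.100 with 1 library left out. Fatty acid oxidation: -0.131 and -0.0105 under the same scalings. Phospholipid synthesis: -0.0544 (total counts). Endothelial markers: -0.127 and -0.00473. Muscle: -1.08 without the 2 muscle-rich libraries, -1.84 to 1.66 with 1 left out. Neuron markers: -0.0410 (total counts), -0.0517 to 0.254 with 1 left out. Genes reversed too. Acta1: -0.215 (replicate block), -1.853 (without the muscle-rich libraries), -2.630 to 1.323 (1 left out). Cdh5: 0.012 (upper quartile), -0.066 to 0.041. Col4a1: 0.015 (upper quartile), 0.081 (Y-linked covariate), -0.070 to 0.069. Far1: -0.046 (total counts), -0.008 to 0.284. Igf2: -0.083 and Itga6: -0.065 (total counts). Mt-co1: -0.161 (total counts), -0.041 (totals without the most abundant genes), -0.004 (Y-linked covariate). Mt-cox3: 0.010 (upper quartile), 0.036 (without the muscle-rich libraries), -0.042 to 0.052. Calls were gained for Mt-cox3 (total counts, -0.222), Itga6 (DESeq2, upper quartile, without the muscle-rich libraries), Far1 (without the muscle-rich libraries) and Hbb (DESeq2, total counts, totals without the most abundant genes, only the groups compared). Without the muscle-rich libraries Igfbp2 became 1.896, Cyp2e1 7.929, Oprk1 -7.267, Pon1 -4.519, Rsad2 -2.289 and Tmem255a -4.011. Thrsp became 5.007 with the Y-linked covariate, Hmga2 -4.038 with DESeq2, and Ddx3 -2.837, Eif2s3y -2.875 and Kdm5d -2.615 with the replicate block. Calls were lost with only the groups compared (Acadl, Cry1, Fads2, Gal, Nr4a1, Pdgfrb, Syt1, Tjp1, Tyrobp), total counts (Gapdh, Lyz2, Mbp, Nr4a1, Tjp1), totals without the most abundant genes (Lyz2, Nr4a1, Tjp1), no count filter (Alas2, Mb), the replicate block (Mb, Tpsab1), the Y-linked covariate (Alas2, Egr1, Fads2, Kcnj8, Mb, Tpsab1, Tyrobp) and without the muscle-rich libraries (Acadl, Acta2, Ahsp, Alas2, Cd3g, Cry1, Egr1, Gapdh, Lyz2, Mb, Nr4a1, Tpsab1). The cause was not tested. With 4 libraries per age, 9700631 counts in the smallest and an uneven sex mix, small changes and genes with few counts are the least certain.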

Other observations

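4 genes that interferon can induce were each chosen after their values were seen, so they give no measure of such genes as a group. Usp18, a protease that removes the modifier ISG15, had 12.5, 9.47, 8.72 and 20.6 CPM at P6 and 1.41, 1.57, 1.65 and 2.73 at P18. All P18 libraries were below all P6 libraries, with a log2 fold change of -2.78 (SE 0.50, Benjamini-Hochberg adjusted p = 1.2e-04, edgeR quasi-likelihood F test), and the change in libraries labelled Tg was -0.07, a difference of -2.71 that passed. Oas1a, a sensor of double-stranded RNA, had 3.58, 4.69, 4.47 and 10.6 CPM at P6 and 1.32, 1.02, 0 and 1.02 at P18. Its ages did not overlap, with a log2 fold change of -2.73 (SE 0.69). Rsad2 (viperin) had 20.7, 9.14, 5.76 and 12.8 CPM at P6 and 2.64, 0.843, 1.42 and 1.59 at P18 and Cxcl10, a chemokine, had 16.1, 4.29, 1.90 and 8.41 CPM at P6 and 0.791, 1.39, 1.18 and 0.827 at P18. Both fell without overlap, by 2.92 and 2.85, the former by 2.29 without the 2 libraries with the most muscle transcripts and the latter by 2.24 without P6 replicate 1, and P6 replicates 1 and 4 were the highest P6 libraries for both.

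Cntf, a ciliary neurotrophic factor of Schwann cells, was also chosen after its values were seen. It had 26.1, 29.9, 29.4 and 24.7 CPM at P6 and 378, 364, 444 and 445 at P18. The ages were far apart, and the log2 fold change was 3.89 (SE 0.11, Benjamini-Hochberg adjusted p = 9.6e-18, edgeR quasi-likelihood F test), with 3.004 in libraries labelled Tg, a difference of 0.88 (SE 0.14, Benjamini-Hochberg adjusted p = 1.3e-04, edgeR quasi-likelihood F test).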
